A study of Mus musculus with 16 samples.

Results

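Snhg6 and 7 other noncoding genes that carry small nucleolar RNAs (snoRNAs) in their introns were followed in poly-A RNA-seq of C2C12 myotubes, multinucleate muscle cells grown from a mouse cell line. The 8 genes were taken by name from a table of 24319 named genes: Snhg6, Snhg1, Snhg3, Snhg5, Snhg8, Snhg12, Gas5 and Zfas1. 7 of them stood in the table under those symbols. The eighth, Zfas1, was found as 1500012F01Rik, which RefSeq lists as an older symbol of Zfas1 and of no other gene. Snhg6 was chosen by its FPKM in these libraries, because its difference between night and day serum depended on the genotype of the serum donor, so its values in that comparison are given as a description, without a test. The other 7 were picked as genes of the same class.

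The myotubes had been kept for 24 hr in mouse serum. The sera came from mice lacking Bmal1 in the liver (Bmal1hep-/-, called LKO here) bled at ZT16 or ZT4, and from wild-type (WT) mice bled at ZT16 or ZT4, where ZT4 is in the day and ZT16 in the night. The groups LKO ZT16, LKO ZT4, WT ZT16 and WT ZT4 held 4 libraries each, biological replicates by their titles. All 16 cultures were of 1 cell line with its own Bmal1 gene unaltered as far as the labels say, and the sources used here give neither the age and sex of the donors, nor the Cre line, nor any pooling of sera. Nothing ties the replicates to separate sera, so the tests weigh differences against the spread among cultures, which may be technical.

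A snoRNA host gene is transcribed and spliced like an mRNA, and its snoRNAs are trimmed out of the removed introns. Most snoRNAs then guide chemical modification of ribosomal and other RNAs, box C/D snoRNAs for 2′-O-methylation and H/ACA snoRNAs for pseudouridylation. The spliced host RNA that remains carries a poly-A tail and is what a poly-A library measures, while a mature snoRNA has no such tail. Many of these host RNAs begin with a terminal oligopyrimidine (TOP) tract, a feature shared with ribosomal protein mRNAs, and several, Gas5 among them, are degraded by nonsense-mediated decay when ribosomes read their short open reading frames.

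The GENCODE M21 annotation of GRCm38 places 30 snoRNAs inside the 8 genes, all of them in introns. Gas5 holds 9, Snhg1 8, Snhg12 4, Zfas1 3, Snhg3 and Snhg5 2 each, and Snhg6 and Snhg8 1 each. Of the 30, 19 carried the box C letters TGATGA in their first 20 bases together with the box D letters CTGA in their last 15, 5 carried the H/ACA letters ACA 3 bases before the 3′ end, and 6 held neither form. The following sequences of GENCODE M21 show what kind of snoRNA 6 of the hosts release. They are read 5′ to 3′ on the strand of the host, with the box C and box D letters, or the ACA box, in capitals. Snord87 of Snhg6 lies at chr1:9942463-9942549 (minus strand), Snord50a of Snhg5 at chr9:88521529-88521600 (minus), Snord47 of Gas5 at chr1:161038082-161038158 (plus) and Snord12 of Zfas1 at chr2:167065276-167065365 (plus). The H/ACA snoRNAs are Snora24 of Snhg8 at chr3:123507937-123508066 (minus) and Snora73a of Snhg3 at chr4:132352775-132352979 (minus).
Snord87: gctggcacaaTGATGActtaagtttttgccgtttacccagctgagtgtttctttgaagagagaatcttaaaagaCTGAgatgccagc
Snord50a: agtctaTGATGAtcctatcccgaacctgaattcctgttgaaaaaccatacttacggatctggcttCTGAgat
Snord47: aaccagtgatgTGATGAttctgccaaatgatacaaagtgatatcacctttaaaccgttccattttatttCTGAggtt
Snord12: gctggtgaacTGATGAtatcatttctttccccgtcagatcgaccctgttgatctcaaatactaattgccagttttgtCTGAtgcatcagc
Snora24: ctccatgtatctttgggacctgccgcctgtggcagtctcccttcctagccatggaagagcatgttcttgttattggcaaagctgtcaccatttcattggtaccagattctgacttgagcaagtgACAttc
Snora73a: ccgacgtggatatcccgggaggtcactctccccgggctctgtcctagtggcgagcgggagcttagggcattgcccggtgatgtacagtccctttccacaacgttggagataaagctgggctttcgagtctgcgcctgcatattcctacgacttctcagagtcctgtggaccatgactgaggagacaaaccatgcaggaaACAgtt

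**Figure D1:**
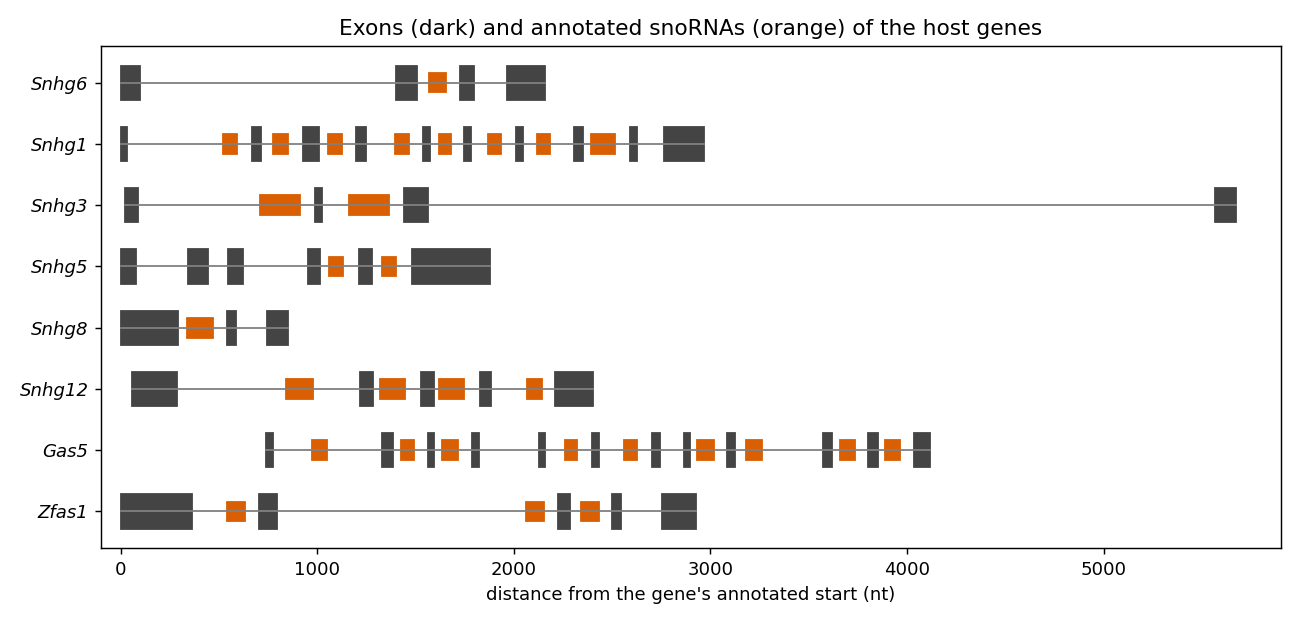
Exon and snoRNA positions in the 8 host genes, drawn from 1 annotated transcript of each; the horizontal axis is the distance in nucleotides from the gene's annotated start, dark boxes are exons and orange boxes are annotated snoRNAs. Every orange box lies between exons, and the number per gene runs from 1 in Snhg6 and Snhg8 to 9 in Gas5.

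The bases around the start of transcription are shown next because TOP RNAs carry a pyrimidine tract there. A hit or a miss in the search below does not settle membership of that class. RefSeq promoters of GRCm38.p6 were available for 7 of the genes, with 2 starts for Gas5, which made 8 windows. No promoter was available for Snhg6, so Snhg6 was not searched for either motif below. A C within 5 bases of the annotated start followed by at least 4 C or T on the sense strand was found in 4 of the 8 windows, against 18.35% of all 32851 promoters of the same length and 42.47% of the 73 promoters of ribosomal protein genes. The 4 windows are printed below from 20 bases before the start, 50 bases each, with the tract in capitals. They are the downstream start of Gas5 (chr1:161035146-161035195, plus strand), Snhg8 (chr3:123508307-123508356, minus), Snhg12 (chr4:132308658-132308707, plus) and Snhg3 (chr4:132353657-132353706, minus). The E-box letters CACGTG, the form bound by BMAL1 with CLOCK, were searched on both strands from 250 bases before to 50 bases after the start. They were found in 0 of the 8, against 7.15% of all promoters. With 8 promoters, 0 cannot be told from that share.
Gas5: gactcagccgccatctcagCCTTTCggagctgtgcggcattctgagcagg
Snhg8: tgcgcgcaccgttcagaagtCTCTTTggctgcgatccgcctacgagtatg
Snhg12: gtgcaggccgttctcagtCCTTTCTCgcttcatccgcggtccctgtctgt
Snhg3: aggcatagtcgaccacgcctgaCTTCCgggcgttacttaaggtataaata

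Levels are given as FPKM, fragments scaled to transcript length and library size, which the authors deposited, and differences as log2(FPKM+1), a scale that understates changes of low values. Genes with a mean of at least 0.5 FPKM were tested with limma over all 16 libraries, 11783 in all, and a gene passed at a Benjamini-Hochberg adjusted p under 0.05. All 8 host genes passed the filter on low values. In the libraries 14234 to 14877 genes had a value above 0. Summed FPKM ran from 580818 to 612430 in LKO ZT16, 602139 to 690636 in LKO ZT4, 637598 to 664601 in WT ZT16 and 593710 to 623083 in WT ZT4, so that WT ZT16 lay wholly above both LKO ZT16 and WT ZT4. Depth estimated from the smallest steps of the values, as a percentage of the deepest library, was 73 to 97.6% in LKO ZT16, 65.3 to 74.2% in LKO ZT4, 66 to 87.7% in WT ZT16 and 71.7 to 100% in WT ZT4. These depths are rough: each rests on the most frequent ratio to a reference library over 468 to 673 low genes. From 8.17 to 23% of the ratios lay within 0.05 log2 of it. Read counts were not used here, so the depth behind a single gene is unknown. Of 10 markers of skeletal myotubes 9 were in the table and all 9 were expressed, and their summed FPKM ran from 3365 to 3794 in LKO ZT16, 3101 to 4541 in LKO ZT4, 3403 to 4446 in WT ZT16 and 3329 to 3826 in WT ZT4. The 4 hepatocyte markers summed to at most 0.17 FPKM in any library, and Ttr was listed at 0 in all 16. Of 4 blood cell markers Ptprc and Hbb-bs were listed at 0 in all 16, while Cd68 had 0.336 to 2.11 FPKM and Hba-a1 0.086 to 1.08, and their sum ran from 0.916 to 1.59 in LKO ZT16, 1.2 to 2.26 in LKO ZT4, 0.871 to 1.92 in WT ZT16 and 0.422 to 2.86 in WT ZT4. The 4 markers of undifferentiated myoblasts and proliferation, Pax7, Myf5, Mki67 and Top2a, were all expressed, with sums of 144 to 160.4 FPKM in LKO ZT16, 117 to 146 in LKO ZT4, 137 to 154 in WT ZT16 and 128 to 153 in WT ZT4. All 4 estimates of ZT16 minus ZT4 were above 0 under both sera (0.04 to 0.29 log2 under LKO serum, 0.04 to 0.13 under WT serum) and 0 of 4 passed (limma, smallest adjusted p = 0.318 under LKO serum and 0.999 under WT serum). For all tested genes, 48.3% of these estimates were below 0 under LKO serum and 49.7% under WT serum.

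Per length, the host RNAs were abundant in these myotubes. Snhg1, a host of 8 snoRNAs, averaged 118 FPKM over the 16 libraries, above 93.2% of tested genes, and Snhg3 averaged 84.4, above 90.4%. Gas5, named for its accumulation in growth-arrested cells, was the lowest at 10.1 FPKM, above 43.5% of tested genes. Snhg1 had the highest mean and Snhg12, Snhg8 and Gas5 the lowest means, in that order, in all 4 groups. The places between them were close: in LKO ZT16 Snhg3 (66.1 ± 14 FPKM, mean ± SD, n = 4), Zfas1 (54.9 ± 12.7), Snhg6 (51.5 ± 4.95) and Snhg5 (47.3 ± 5.80) followed each other with overlapping libraries. By mean level among the 8, Snhg6 held rank 4 in LKO ZT16, 3 in LKO ZT4, 4 in WT ZT16 and 5, below Snhg5, in WT ZT4.

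Snhg6, the host of Snord87, lies at chr1:9941959-9944118 on the minus strand of GRCm38 and is annotated with up to 4 exons. Replicates 1 to 4 had 51.3, 44.6, 55.9 and 54.0 FPKM in LKO ZT16 and 70.9, 76.7, 94.2 and 88.1 in LKO ZT4. Under WT serum they had 74.1, 81.6, 76.1 and 63.8 in WT ZT16 and 45.1, 55.3, 48.8 and 44.0 in WT ZT4. Every LKO ZT16 library was below every LKO ZT4 library, and every WT ZT16 library was above every WT ZT4 library, so night serum went with less Snhg6 under LKO serum and with more under WT serum. LKO and WT libraries did not overlap at either time, LKO being lower at ZT16 and higher at ZT4. Groups apart in the same direction were found for 2.52% of all tested genes (lower, LKO over time) and 2.55% (higher, WT over time), and between genotypes for 2.28% (higher, ZT4) and 5.92% (lower, ZT16). The 4 LKO ZT16 libraries overlapped with those of WT ZT4, and the 4 of LKO ZT4 with those of WT ZT16.

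The group means of Snhg6 were 51.5 ± 4.95 FPKM in LKO ZT16, 82.5 ± 10.6 in LKO ZT4, 73.9 ± 7.44 in WT ZT16 and 48.3 ± 5.09 in WT ZT4 (SD, n = 4 each). On the log2 scale ZT16 minus ZT4 was -0.67 ± 0.10 (estimate ± SE) under LKO serum and 0.60 ± 0.10 under WT serum, and the difference between these was -1.27 ± 0.14. LKO minus WT was -0.51 ± 0.10 at ZT16 and 0.76 ± 0.10 at ZT4. In such bulk RNA, fewer cells of a kind and less RNA per cell cannot be told apart. The 5 differences come from the contrast that chose the gene, and they share their groups with one another. The averages, which the choice did not use, were near 0: ZT16 minus ZT4 averaged over the genotypes was -0.03 ± 0.07 (95% interval -0.18 to 0.12, limma, adjusted p = 0.988), and LKO minus WT averaged over the times was 0.12 ± 0.07 (95% interval -0.03 to 0.27, adjusted p = 0.525). Neither passed. In either average 0% of tested genes passed, while 539 had an unadjusted p under 0.05 for time and 1393 for genotype.

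**Figure D2:**
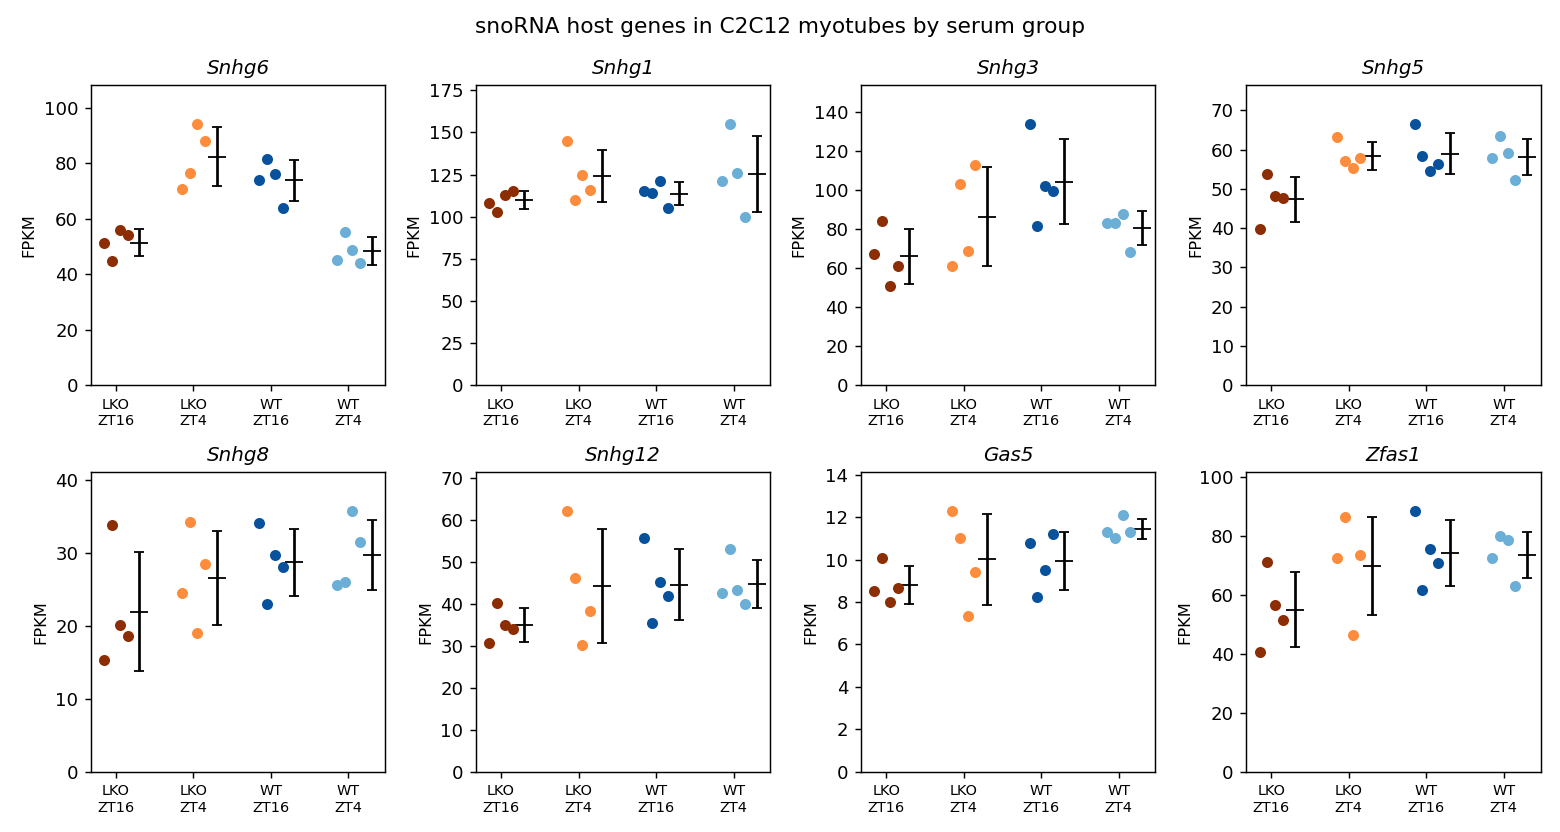
FPKM of each of the 8 host genes (vertical axes, each from 0) in LKO ZT16, LKO ZT4, WT ZT16 and WT ZT4; points are libraries in the order of replicates 1 to 4, and the black mark and bar beside them are the mean and SD of 4 libraries. Snhg6 is low in LKO ZT16 and WT ZT4 and high in the other groups without overlap between the times of either genotype, while among the other 7 genes the groups compared over time or between genotypes overlap, except for Snhg5 in LKO ZT16 against LKO ZT4 and against WT ZT16.

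The summed FPKM of the libraries and a length-dependent shift between them moved in part with the same groups. With libraries scaled to the same summed FPKM the difference of differences of Snhg6 was -1.09 ± 0.15. With each gene centred over the libraries, short transcripts (under 500 nt) minus long ones (over 2000 nt) came to a mean of -0.05 ± 0.05 log2 in LKO ZT16, 0.05 ± 0.15 in LKO ZT4, 0.05 ± 0.04 in WT ZT16 and -0.05 ± 0.02 in WT ZT4 (SD, n = 4 each). The libraries of LKO ZT4 were split, at -0.04, 0.12, -0.11 and 0.21 in replicates 1 to 4. Their Snhg6 was 70.9, 76.7, 94.2 and 88.1 FPKM in the same order. Whether this shift bears on Snhg6 was not tested. The 8 host RNAs are short, with median annotated transcripts of 437 to 915.5 nt (559 nt for Snhg6) against a median of 1381.5 nt over tested genes. Among the 4366 tested genes with transcripts of 400 to 1000 nt the median of the same difference of differences was -0.034, and with each library's trend over transcript length removed Snhg6 was at -1.19 ± 0.15.

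The protein-coding genes nearest to Snhg6 were at or near 0. Mcmdc2, a gene of the MCM family, overlaps the 3′ end of Snhg6 by 127 nt on the other strand, and the sources used here do not say whether the authors' counting used strand. It was listed at 0 in 14 of the 16 libraries and reached 0.0472 FPKM at most. Tcf24, 16045 nt away on the same strand, was listed at 0 in all 16.

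The 7 other host genes gave no difference that passed. Under LKO serum, 0 of the 7 passed between ZT16 and ZT4 (limma, smallest adjusted p = 0.24; 1 with an unadjusted p under 0.05, against 11.9% of all tested genes), where 0.0170% of all tested genes passed. All 7 estimates were below 0, with a median of -0.30 against 0.006 over all tested genes, of which 48.3% were below 0. Under WT serum 0 of the 7 passed (smallest adjusted p = 0.999; 0 with an unadjusted p under 0.05, against 3.97% of all), where 0% of tested genes passed, and 4 of the 7 estimates were below 0, with a median of -0.02. The estimates were spread around 0 under WT serum and lay on the lower side under LKO serum, but the test of the difference between the genotypes passed for 0 of the 7 (smallest adjusted p = 0.366; 2 with an unadjusted p under 0.05, against 10.3% of all), where 0.0934% of tested genes passed. Of those 7 differences 6 were below 0, with a median of -0.27 against 0.009 over all tested genes, of which 47.7% were below 0. Scaling the libraries to the same summed FPKM moved the median of all tested genes to 0.17 for this difference of differences, and to 0.10 both for LKO ZT16 minus LKO ZT4 and for LKO minus WT at ZT16. Under that scaling the median of the 7 was -0.09, with 5 of 7 below 0.

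**Figure D3:**
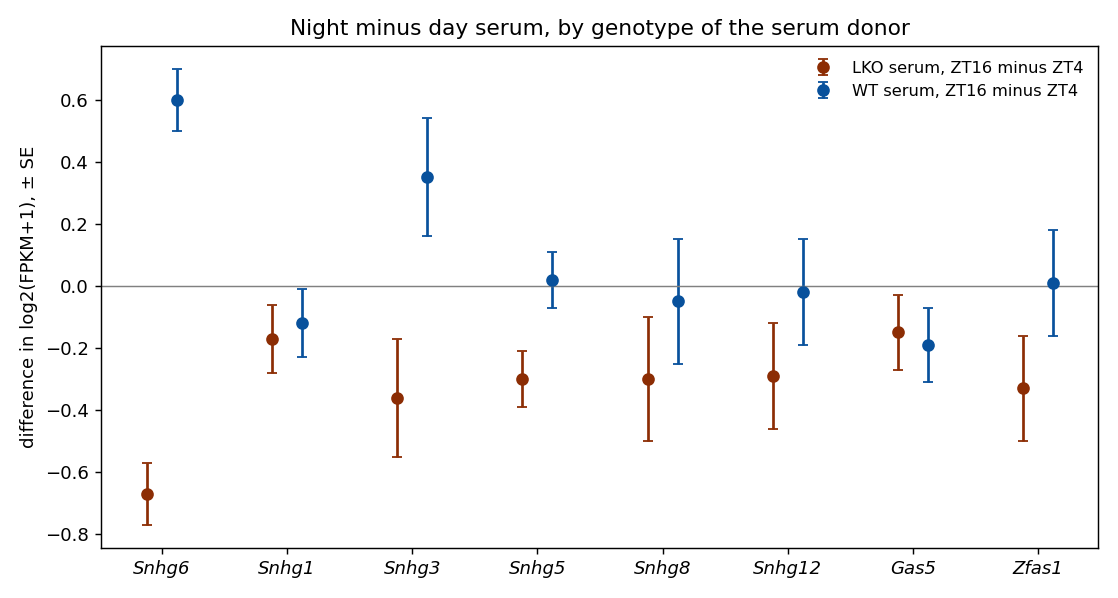
ZT16 minus ZT4 in log2(FPKM+1) (vertical axis) for each host gene under LKO serum (red-brown) and WT serum (blue); points are limma estimates and bars are ± 1 SE. Snhg6 has opposite signs, -0.67 under LKO serum and 0.60 under WT serum, and the other 7 genes lie between -0.36 and -0.15 under LKO serum and between -0.19 and 0.35 under WT serum.

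Between the genotypes, 0 of the 7 passed at ZT16 (limma, smallest adjusted p = 0.223; 3 with an unadjusted p under 0.05, against 12.7% of all), where 0.0509% of tested genes passed. All 7 estimates were below 0 (6 of 7 with the same summed FPKM), against 48.6% of all tested genes. Their median was -0.33 against 0.005. At ZT4, 0 of the 7 passed as well (smallest adjusted p = 0.594; 0 with an unadjusted p under 0.05, against 10.3% of all), where 0.00849% of tested genes passed, and 5 of the 7 were below 0, with a median of -0.06. The low estimates under LKO serum over time and at ZT16 between genotypes rest on the same LKO ZT16 libraries. In the averages 0 of the 7 passed, with medians of -0.15 for ZT16 minus ZT4 (1 with an unadjusted p under 0.05, against 4.57% of all) and -0.19 for LKO minus WT (3 with an unadjusted p under 0.05, against 11.8% of all).

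Snhg5, host of the box C/D snoRNAs Snord50a and Snord50b, had 39.7, 53.7, 48.2 and 47.6 FPKM in LKO ZT16, against 63.3, 57.0, 55.3 and 57.9 in LKO ZT4. It had 66.5, 58.3, 54.6 and 56.3 in WT ZT16 and 57.9, 63.4, 59.1 and 52.3 in WT ZT4. The LKO ZT16 libraries lay below all of LKO ZT4 and all of WT ZT16, a separation in that direction found for 2.52% and 5.92% of tested genes, and the other 3 groups overlapped. LKO ZT16 minus LKO ZT4 was -0.30 ± 0.09 (limma, adjusted p = 0.24) and LKO ZT16 minus WT ZT16 was -0.31 ± 0.09 (adjusted p = 0.223). The difference of the time differences was -0.32 ± 0.12 (limma, adjusted p = 0.366). It was -0.14 when libraries were scaled to the same summed FPKM, where the median of all tested genes was 0.17.

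Snhg3 releases Snora73a and Snora73b, the H/ACA snoRNAs also known as U17, which act in processing of the ribosomal RNA precursor. It had 67.5, 84.4, 51.1 and 61.3 FPKM in LKO ZT16 and 61.2, 103, 68.7 and 113 in LKO ZT4, and under WT serum 134, 81.6, 102 and 99.7 in WT ZT16 and 83.4, 83.4, 88.0 and 68.1 in WT ZT4. The groups overlapped in every comparison, and WT ZT16 replicate 1 was the highest of all. LKO minus WT at ZT16 was -0.65 ± 0.19 (limma, adjusted p = 0.226), which passed in 1 alternative, a fit that weights libraries by how closely they follow the model (-0.68 ± 0.15, adjusted p = 0.0383) and in which 2.16% of all tested genes passed, or 254 against 6 without weights. The difference of the time differences was -0.71 ± 0.27 (adjusted p = 0.366), nearest to that of Snhg6 in size among the 7. Snhg3 overlaps Rcc1 by 5592 nt on the same strand, so reads of both genes may not be told apart everywhere. Rcc1, which encodes the exchange factor of the GTPase Ran, ranged from 46.9 to 80.3 FPKM and its difference of differences was 0.01 ± 0.18 (adjusted p = 0.993).

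Zfas1, host of Snord12 and its relatives, had 40.5, 71.1, 56.5 and 51.4 FPKM in LKO ZT16 and 72.5, 86.5, 46.5 and 73.6 in LKO ZT4. It had 88.5, 61.7, 75.7 and 70.9 in WT ZT16 and 72.5, 79.8, 78.7 and 62.9 in WT ZT4. The LKO groups were the widest, with a coefficient of variation of 23.2% in LKO ZT16 and 24.0% in LKO ZT4 against 15.1% in WT ZT16 and 10.5% in WT ZT4, and all groups overlapped. LKO minus WT at ZT16 was -0.44 ± 0.17 (limma, adjusted p = 0.323).

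Snhg8, host of Snora24, was among the lower genes. It had 15.3, 33.8, 20.2 and 18.6 FPKM in LKO ZT16 and 24.5, 34.3, 19.1 and 28.5 in LKO ZT4, against 34.1, 23.0, 29.8 and 28.1 in WT ZT16 and 25.6, 26.1, 35.8 and 31.5 in WT ZT4. A single LKO ZT16 library, replicate 2, stood above the other 3, and the group had a coefficient of variation of 37.2%. LKO minus WT at ZT16 was -0.42 ± 0.20 (limma, adjusted p = 0.401), and was -0.64 without LKO ZT16 replicate 2 and -0.27 without LKO ZT16 replicate 1.

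Snhg12 holds 4 snoRNAs of both kinds, Snora16a, Snora44, Snora61 and Snord99. Its values were 30.6, 40.3, 35.0 and 34.0 FPKM in LKO ZT16 and 62.2, 46.3, 30.3 and 38.3 in LKO ZT4. They were 55.8, 35.5, 45.2 and 41.9 in WT ZT16 and 42.6, 53.2, 43.3 and 40.1 in WT ZT4. The groups overlapped, and LKO ZT4 held both the highest and the lowest library of all 16. LKO minus WT at ZT16 was -0.33 ± 0.17 (limma, adjusted p = 0.437), and ran from -0.43 to -0.22 with a library left out.

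Snhg1 and Gas5 hold the most snoRNAs, and their estimates of the genotype-by-time difference were the nearest to 0 on the deposited scale. With the same summed FPKM those of Snhg8 (-0.07) and Snhg12 (-0.09) were nearest to 0. That scaling moved the median of all tested genes to 0.17, and Snhg1 (0.14) and Gas5 (0.21) lay nearest to that median. Snhg1 had 108, 103, 113 and 115 FPKM in LKO ZT16 and 145, 109.7, 125 and 116 in LKO ZT4, and 115, 114, 121 and 105 in WT ZT16 and 121, 155, 126 and 100.1 in WT ZT4. Its difference of time differences was -0.04 ± 0.15 (95% interval -0.36 to 0.27, limma, adjusted p = 0.952), and 0.14 with the same summed FPKM. Gas5 had 8.5, 10.1, 8.01 and 8.67 FPKM in LKO ZT16 and 12.3, 11, 7.35 and 9.42 in LKO ZT4, and 10.8, 8.22, 9.53 and 11.2 in WT ZT16 and 11.3, 11, 12.1 and 11.3 in WT ZT4. The WT ZT4 libraries were the closest together, within 11 to 12.1 FPKM, and the groups overlapped in each comparison. Its difference of time differences was 0.04 ± 0.17 (95% interval -0.32 to 0.40, adjusted p = 0.96), and ran from -0.08 to 0.21 over the alternatives.

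Within groups the same libraries were high or low for most of the 7 genes. Snhg6 lay on the other side of its group mean from the average of the 7 in 8 of the 16 libraries, all 4 of LKO ZT16, 3 of LKO ZT4, 1 of WT ZT16 and 0 of WT ZT4, and on the same side in the other 8. In LKO ZT16, replicate 2 was the highest library for 6 of the 7, on average 0.27 log2 above the group mean, and the lowest for Snhg6. In LKO ZT4, replicate 3 was the lowest for 5 of the 7 (-0.31 on average) and the highest for Snhg6. In WT ZT16, replicate 1 was the highest for 5 of the 7 (0.22 on average), and replicate 2 was the lowest for 5 of the 7 (-0.20) and the highest for Snhg6. In WT ZT4, replicate 2 was the highest for 4 of the 7 (0.09 on average) and for Snhg6 (0.20), and replicate 4 the lowest for 5 of the 7 (-0.14) and for Snhg6. With Snhg6, the deviations of Gas5 from its group means had a Pearson r of -0.82 over the 16 libraries, those of Snhg8 -0.48, of Snhg12 -0.44, of Zfas1 -0.36, of Snhg3 -0.12, of Snhg5 -0.07 and of Snhg1 0.41. These are descriptions over libraries whose depth and length balance are shared by all genes.

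**Figure D4:**
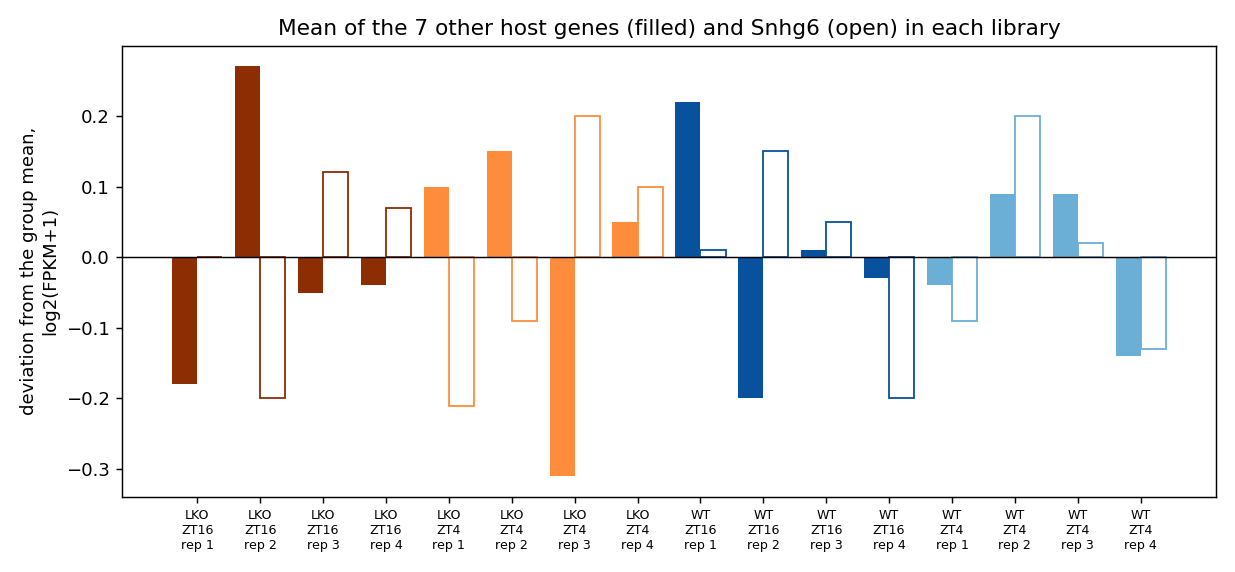
Deviation of each library from its group mean in log2(FPKM+1) (vertical axis), averaged over the 7 other host genes (filled bars) and for Snhg6 (open bars), with the 16 libraries on the horizontal axis. The filled bar is highest in LKO ZT16 replicate 2 (0.27) and lowest in LKO ZT4 replicate 3 (-0.31), and the open bar has the opposite sign in both, while in WT ZT4 both bars have the same sign in all 4 libraries.

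The genes whose pattern over the 16 libraries was most like that of Snhg6 included none of the 7 other host genes. By Pearson r of log2(FPKM+1), the 8 nearest of the tested genes were Rpl34-ps1 and Rps27rt (0.88 each), Gng5 and Atg101 (0.87 each), Rpl12 (0.86), and Rps21, Ten1 and Bola2 (0.85 each), and 25 genes in all had an r above 0.8. Of the 8, 4 are ribosomal protein genes or copies of one: Rpl12, Rps21, the Rps27 retrogene copy Rps27rt and the Rpl34 pseudogene Rpl34-ps1, and reads of such copies may be shared with their parent genes. Gng5 encodes a G protein gamma subunit, Atg101 a component of the complex that starts autophagy, Ten1 a subunit of the CST complex at telomeres, and Bola2 a partner of glutaredoxins in iron handling. Since Snhg6 was chosen for its pattern, likeness to it carries the same pattern, and r is a description with no test.

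Rps21, a protein of the small ribosomal subunit, averaged 1735 ± 153 FPKM in LKO ZT16, 3096 ± 823 in LKO ZT4, 3200 ± 219.7 in WT ZT16 and 1863 ± 223 in WT ZT4 (SD, n = 4 each). Atg101 averaged 29.6 ± 1.99 FPKM in LKO ZT16, 34.8 ± 2.70 in LKO ZT4, 33.6 ± 1.45 in WT ZT16 and 27.7 ± 1.88 in WT ZT4. Gng5 averaged 354 ± 16.1 FPKM in LKO ZT16, 472 ± 77.0 in LKO ZT4, 442 ± 18.3 in WT ZT16 and 368 ± 28.1 in WT ZT4. All 3 were low in LKO ZT16 and WT ZT4 and high in the other groups, over levels that differ widely per length. Among the host genes themselves, r with Snhg6 was 0.35 for Snhg3, 0.34 for Snhg5, 0.21 for Snhg1, 0.08 for Zfas1, 0.03 for Snhg12, -0.06 for Snhg8 and -0.36 for Gas5.

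**Figure D5:**
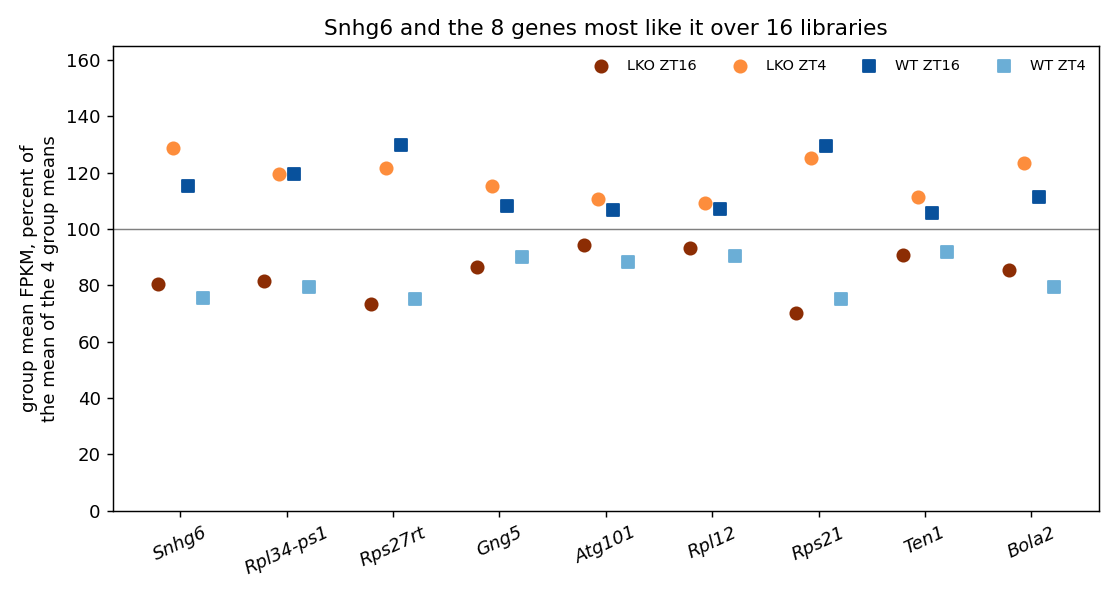
Group mean FPKM as a percentage of the mean of the 4 group means (vertical axis) for Snhg6 and the 8 genes most like it over 16 libraries; circles are LKO and squares WT, with ZT16 dark and ZT4 light. In each gene LKO ZT4 and WT ZT16 are above 100 and LKO ZT16 and WT ZT4 below it, with the widest spread in Rps27rt, Rps21 and Snhg6.

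Other genes that host snoRNAs were compared as lists, by counts and medians beside those of all tested genes. Of 14 further noncoding hosts 11 were in the table and 8 were tested, Snhg4, Snhg7, Snhg10, Snhg14, Snhg17, Snhg18, Snhg20 and Dancr, and 0 of them passed in any of the 7 comparisons. Their median difference of time differences was -0.02, with 4 of 8 below 0, and 0.14 with the same summed FPKM, against 0.17 for all tested genes. Snhg18 was the member with the smallest adjusted p: it had 4.76 ± 0.819 FPKM in LKO ZT16, 5.48 ± 0.823 in LKO ZT4, 3.29 ± 0.406 in WT ZT16 and 4.01 ± 0.774 in WT ZT4 (SD, n = 4 each). LKO minus WT averaged over the times was 0.40 ± 0.09 for Snhg18 (limma, adjusted p = 0.125), on the other side of 0 from the 7. Over time all 8 were below 0 under LKO serum (median -0.19) and 7 of 8 under WT serum (median -0.20). Of all tested genes 48.3% were below 0 under LKO serum and 49.7% under WT serum.

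Protein-coding hosts fell into a pair of classes by annotation. All 30 ribosomal protein genes that hold a snoRNA were tested. In the difference of time differences, where 0.0934% of all tested genes passed, 1 of the 30 passed, Rpl39, which encodes a protein of the large subunit. It averaged 1411 ± 46.8 FPKM in LKO ZT16, 2064 ± 418 in LKO ZT4, 2331 ± 164 in WT ZT16 and 1633 ± 51.4 in WT ZT4 (SD, n = 4 each), a difference of differences of -1.04 (limma, adjusted p = 0.00983; 0.0549 and not passing with no filter on low values). All 30 estimates were below 0, with a median of -0.31, against 47.7% of all tested genes below 0. Outside the 30, ribosomal protein genes or copies also passed, among them Rpl38 (-1.64), Rps21 (-1.58), Rps27rt (-1.49) and Rpl34-ps1 (-1.12). Ribosomal protein genes without a snoRNA were not compared as a list. ZT16 minus ZT4 was below 0 in 30 of 30 under LKO serum (median -0.17), against 48.3% of all. Under WT serum it was above 0 in 30 of 30 (median 0.13), where 49.7% of all were below 0. With the same summed FPKM, 20 of the 30 differences of differences were below 0, with a median of -0.12 against 0.17 for all genes. Over time 22 of 30 were then below 0 under LKO serum, where the median of all tested genes was 0.10. Under WT serum 9 of 30 were below 0, where that median was -0.07. Rpl39 also passed between the genotypes at ZT16, as did 0.0509% of all tested genes, and its LKO minus WT was -0.72 (limma, adjusted p = 0.0296). That call was lost in 13 of 27 settings (adjusted p up to 0.184), among them leaving out any 1 library of LKO ZT16 or WT ZT16. It was lost with the replicate numbers of the titles as a block, but not with those of the column names. Of 228 other annotated protein-coding hosts 160 were tested and 0 passed in any comparison, with a median difference of time differences of 0.05 and 60 of 160 below 0 (0.22 and 7 of 160 with the same summed FPKM). A shorter list of 21 well-known coding hosts other than ribosomal proteins had 20 tested and 0 that passed, with a median of -0.01 (0.17 with the same summed FPKM). The smallest adjusted p there was that of Tpt1, host of an H/ACA snoRNA and itself a TOP mRNA, at -0.28 ± 0.10 (adjusted p = 0.349).

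The proteins that package snoRNAs and the routes that act on host RNAs gave no call either. Of all tested genes 48.6% were below 0 for LKO minus WT at ZT16 and 47.7% for the difference of time differences. With the same summed FPKM the medians of all tested genes were 0.10 and 0.17 in that order. For the core proteins of box C/D and H/ACA particles 7 of 8 were tested and 0 passed in any comparison, with all 7 below 0 for LKO minus WT at ZT16 (median -0.20; 6 of 7 with the same summed FPKM) and a median difference of time differences of -0.06, or 0.13 with the same summed FPKM. Nop10, an H/ACA core protein, averaged 129 ± 5.12 FPKM in LKO ZT16, 148 ± 27.5 in LKO ZT4, 161 ± 15.6 in WT ZT16 and 137 ± 14.9 in WT ZT4 (SD, n = 4 each), and its difference of differences was -0.42 ± 0.16 (limma, adjusted p = 0.375). Fbl, the methyltransferase of box C/D particles, was at -0.17 ± 0.14 (adjusted p = 0.717). Of 10 assembly factors, 14 nonsense-mediated decay factors and 6 known decay target mRNAs, all were tested and 0 passed, with median differences of time differences of -0.04, 0.01 and -0.07 for the assembly factors, the decay factors and the targets in that order (0.13, 0.18 and 0.11 with the same summed FPKM). Znhit3, which takes part in box C/D assembly, was at -0.34 ± 0.11 (adjusted p = 0.245), and Smg1, the kinase that phosphorylates Upf1 in decay, at 0.30 ± 0.18 (adjusted p = 0.592). Of 17 TOP mRNAs other than ribosomal proteins 16 were tested and 0 passed, with a median of -0.11 and 14 of 16 below 0 (0.08 and 4 of 16 with the same summed FPKM), among them Btf3 at -0.24 ± 0.08 (adjusted p = 0.272). The 11 regulators of the mTORC1 and LARP1 route, which controls translation of TOP mRNAs, were all tested and 0 passed, with a median of 0.06 (0.24 with the same summed FPKM) and Rps6kb1, the S6 kinase gene, at 0.18 ± 0.09 (adjusted p = 0.527). None of these lists held a smaller adjusted p for that difference than the 0.245 of Znhit3.

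The genes next to the other hosts were looked at for reads that could be shared. Slc3a2, a transporter subunit that starts 106 nt from Snhg1 on the other strand, ranged from 126 to 245 FPKM, Zbtb37 overlaps Gas5 by 428 nt on the other strand and ranged from 0.841 to 2.03, and Znfx1 overlaps Zfas1 by 82 nt on the other strand and ranged from 8.48 to 11.2. Their differences of time differences were -0.09 ± 0.21 for Slc3a2 (limma, adjusted p = 0.928), 0.28 ± 0.18 for Zbtb37 (adjusted p = 0.607) and -0.13 ± 0.11 for Znfx1 (adjusted p = 0.702). None of the tested neighbours of the 8 hosts passed in any comparison.

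Of the snoRNAs themselves the table says little. It held 110 rows named as Snora or Snord, of which 5 were above 0 in any library: Snora23, Snora74a, Snora78, Snora81 and Snord17. Of the 30 snoRNAs inside the 8 host genes 9 had a row, Snord87, Snord47, Snord12 and Snora24 among them, and all 9 were listed at 0 in every library. Mature snoRNAs were therefore not analysed here.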

How the data were processed

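Poly-A RNA-seq of 16 cultures of C2C12 myotubes was used as 1 table of gene values. The values are FPKM made and deposited by the authors. Per the labels, total RNA from DirectZol columns was enriched for poly-A tails and copied from random hexamers. Per the submitters' processing notes, STAR (no version) and FastQC 0.11.8 were used and mm10 and GRCm39 were named without a role. The program, annotation and strand setting behind the values: not given in the sources used here. Columns were matched to samples by library name.

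The table had 24346 rows, of which 27 had symbols turned into dates and were left out, and 7121 of the rest were 0 in every library. Genes averaging 0.5 FPKM or more were fitted as log2(FPKM+1) in 1 model of the 4 groups with limma 3.58.1 in R 4.3.3 (eBayes with trend, 12 residual degrees of freedom), with Benjamini-Hochberg adjustment over 11783 genes. The fit was also run on simulated data, drawn independently for each gene and library and so without shifts shared by a library. No result given here rests on it. In the 120 pairs of libraries at most 0.0849% of tested genes had identical FPKM. Depth relative to the deepest library was read from the steps of low values. Lengths, snoRNAs and neighbours came from GENCODE M21. Tables and figures used Python 3.11.15, pandas 2.3.3 and matplotlib 3.10.9.

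Named genes are the 8 hosts, the 8 genes with the highest r with Snhg6, list members that passed or, with up to 3 a list, had the smallest p for the difference of differences, the nearest protein-coding neighbours and the snoRNAs inside the hosts. Snhg18 was named after its values were seen. The members and lists were chosen with earlier results of these data known. Alternatives were a pseudocount of 0.1, other filters and scalings, library weights, removal of a length trend, a replicate block, only the groups compared, and each library left out. The replicate numbers of the titles did not show a pairing of the libraries.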

Additional observations from a re-analysis of the deposited data

Results flagged for a closer look

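Snhg6 is listed because its libraries moved in opposite directions over time in the 2 genotypes: every LKO ZT16 library was below every LKO ZT4 library, and every WT ZT16 library was above every WT ZT4 library, with a difference of differences of -1.27 on the log2 scale. The gene was chosen for this pattern, so the difference was not tested. Groups apart in the same direction were found for 2.52% of all tested genes (lower, LKO over time) and 2.55% (higher, WT over time). In the 32 sets of 4 libraries formed by the 8 host genes and 4 groups, 0 held a library far from the other 3 by Dixon's 95% limit, where chance would mark about 1 in 20.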

How the results depend on the processing

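With 4 libraries a group and no read counts, modest changes of single genes may be missed. Scaling to the same summed FPKM moved the difference of differences of Snhg6 to -1.09, that of Snhg1 to 0.14 (adjusted p = 0.558) and that of Snhg5 to -0.14 (adjusted p = 0.429). This scaling moves the median of all tested genes by its construction, to 0.17 for that difference. Over all alternatives that of Snhg6 ran from -1.34 to -1.09, and with a library left out from -1.34 to -1.20. With library weights 1 of the 7 other genes, Snhg3, passed for LKO minus WT at ZT16 (-0.68 ± 0.15, adjusted p = 0.0383, the cause was not tested), in a fit that called 254 of 11783 genes there, against 6 without weights. In each other alternative and comparison 0 of the 7 passed, and 0 of 8 passed in either average. The average of ZT16 minus ZT4 for Snhg6 changed sign to 0.00 with library weights, and ran from -0.07 to 0.00 with a library left out. LKO minus WT averaged over times for Snhg6 ran from 0.09 to 0.16.

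With the replicate number of the titles as a block, the difference of differences of Snhg6 was -1.27 and 0 of the 7 others passed in any comparison. The numbers do not show pairing: over 24 same-number pairs the correlation of deviations from group means ran from -0.22 to 0.25, with 4 over 0.1, and 4 of 16 libraries correlated best with their own number. The table's column names give 7 of the 16 libraries a number other than the title's. Those numbers, tried as a block after seeing the data, gave correlations of -0.09 to 0.33 with 8 over 0.1. The median was 0.06 for same-number pairs against -0.01 for other pairs, and 7 of 16 libraries correlated best with their own number. That block changed no call of the host genes.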
